A study of Mus musculus with 8 samples.

Results

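The Polycomb group genes described here were Ezh1, Ezh2, Eed, Suz12, Ring1, Bmi1, Cbx2, Phc1, Rybp and Yaf2, followed through RNA immunoprecipitation (RIP) with an antibody against DAZL in mouse fetal gonads. Their probes were found by gene name on a 1-colour microarray, and all 17 were also matched by the accession given for them, so that 17 of 41174 probes, and 10 of 27810 gene names, were described. RIP isolates a protein from an extract and compares the RNA held by it with RNA of the extract (input). The question here was which Polycomb mRNAs came down with DAZL in each sex. DAZL, which only germ cells make, attaches to mRNAs and is known for affecting how ribosomes use them. The samples were gonads of E14.5 embryos of the MCH strain, with no genetic change named in the labels, in lots of 50 gonads that hold germ cells and somatic cells together. Each sex had 2 groups, input and immunoprecipitate (IP), and each of the 4 groups had 2 arrays. Inputs were 5% of the starting material. Cy3-labelled cRNA was made from 50 ng of RNA for an input and from 1 ng for an IP. No array of a control antibody was used here, so recovery means the IP relative to the input and includes whatever RNA stays on antibody and beads.

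Polycomb group proteins keep genes silent through chromatin and work in 2 main complexes. Polycomb repressive complex 2 (PRC2) methylates lysine 27 of histone H3, with EZH2 or EZH1 as the enzyme and EED and SUZ12 as core partners. Polycomb repressive complex 1 (PRC1) attaches ubiquitin to histone H2A through a RING1 or RNF2 subunit. Canonical PRC1 also holds a PCGF protein such as BMI1, a chromobox protein such as CBX2 that binds methylated histone H3, and a polyhomeotic protein such as PHC1, whereas variant PRC1 holds the related subunits RYBP or YAF2 in place of the chromobox protein. In fetal germ cells, Polycomb complexes are known for restraining the timing of sexual differentiation and meiotic entry, and CBX2 is also known for its part in testis formation.

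The arrays differed most in how much signal they held. The number of probes well above background, a mark set by the scanner software, lay between 16713 and 20391 for input arrays and between 6068 and 9468 for IP arrays. Of the 17 Polycomb probes, 10 to 15 were above background on an input array and 5 to 9 on an IP array. All levels below are log2 signals relative to the 75th percentile of the same array, so that 0 is that percentile. On IP arrays the lowest signal counted as above background lay at 0.03 to 1.02, and on input arrays at -3.59 to -2.34. The 75th percentile of an IP array was thus itself not above background, and every fold between IP and input rests on it. A level is not compared between probes. The mRNA of Dazl itself was recovered in both sexes: its probes had log2 differences (IP minus input) of 3.09 and 2.69 in XX, and of 2.93 and 2.06 in XY. The second of these probes (A_52_P271166) lost its XY call under 7 of 21 alternatives and turned to -0.14 after normexp background correction with outlying local backgrounds replaced, while the first (A_51_P246060) lost it under 3 and fell to 0.66 at the lowest. XX and XY samples lay on 2 different slides, so sex and slide cannot be told apart.

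Tissue labels were set against lists of cell type markers. Of 14 germ cell markers, 13 of them on the array, 11 genes were above background on both XX inputs and 12 on both XY inputs. The summed signal of 8 Sertoli cell markers, in multiples of the 75th percentile, was 3.95 to 4.05 in the XX inputs and 193 to 228 in the XY inputs. That of 7 ovarian supporting cell markers was 99.0 to 99.6 in the XX inputs and 13.5 to 14.53 in the XY inputs, although Foxl2 itself, a defining marker, was above background on no array. In bulk gonads, fewer cells of a type and less RNA per cell cannot be told apart.

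A probe was tested when at least 1 group had it well above background on both arrays. This held for 12 Polycomb probes, at least 1 for each gene, and all 12 passed through an input group. In the IP contrasts a probe was called at an adjusted p under 0.05 with a difference of at least 4-fold (2 on the log2 scale). The p-values are from limma over all 18265 probes tested, with Benjamini-Hochberg adjustment, and n = 2 arrays per group throughout. No source says whether the 2 arrays of a group came from separate lots of gonads, so the p-values measure the spread between these arrays, which may be technical.

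Ezh2 encodes the main PRC2 methyltransferase, and its mRNA was lower in the IP than in the input of both sexes. Its only probe (A_51_P248067, mm8 chromosome 6, 47461634 to 47462529) spans 896 bases of genome in the files. The log2 level was 2.36 and 2.27 in the XX inputs, 0.83 and 1.56 in the XX IPs, 2.01 and 1.90 in the XY inputs, and -1.14 and -0.65 in the XY IPs. Both IPs lay below both inputs in each sex, without overlap. In XY the fitted log2 difference was -2.85 ± 0.41 (SE, adjusted p = 0.000413), which met the limits for a call. The probe was above background on neither XY IP array, however, so only a bound can be given: the level was at least 2.80-fold lower, from the lowest signal counted as above background on each IP array. That bound falls short of 4-fold, so a 4-fold fall was not shown. In XX the log2 difference was -1.12 ± 0.41 (adjusted p = 0.0409), a 2.17-fold lower level that stayed under the 4-fold limit, with 1 of 2 IP arrays above background.

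Ezh1 encodes the other PRC2 methyltransferase, which is weaker and typical of resting cells. Its probe (A_52_P237871, chromosome 11, 101007913 to 101007972) was dim, with a log2 level of -1.93 and -3.74 in the XX inputs, -1.13 and -0.43 in the XX IPs, -1.89 and -2.33 in the XY inputs, and -0.95 and -0.80 in the XY IPs. It was above background on 3 of 8 arrays, and on none of the IPs. The XX difference of 2.06 ± 0.55 passed both limits (adjusted p = 0.00941), but no fold can be given, since both IP values lay below the lowest signal counted as above background on their arrays (1.02 and 0.28). Dim probes in general stood higher relative to the 75th percentile on IP arrays. Without any filter on dim probes the median log2 difference of all 41101 probes was 2.54 in XX and 2.38 in XY, against 0.09 and -0.03 over the probes tested. The same holds for Ring1 below. The XX call of Ezh1 was lost in 9 of 20 alternatives, with differences down to 0.05. Without the second XX input array the Ezh1 difference was 1.16, and without the second XX IP array it was 1.71, both under the 4-fold limit.

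Suz12 encodes the PRC2 subunit on which the stability of the complex depends, and it was the only member called higher in the IP of both sexes. The 3′-most of its probes (A_51_P214796, chromosome 11, 79849944 to 79850003) had a log2 level of 2.05 and 2.11 in the XX inputs against 5.49 and 5.30 in the XX IPs. In XY it was 1.58 and 1.60 in the inputs against 3.90 and 3.72 in the IPs. The spread between arrays of a group was small beside these gaps, and no IP value overlapped an input value. The level in the IP was 9.97-fold higher in XX (log2 difference 3.32 ± 0.37, adjusted p = 9.85e-05) and 4.66-fold higher in XY (2.22 ± 0.37, adjusted p = 0.000998). The XY call is close to the fold limit: scaled to the median of the probes above background on all arrays it was 1.94 (adjusted p = 0.011). A second Suz12 probe (A_52_P302203, 79829671 to 79829730), 20273 bases upstream in the genome, was above background on 1 XX input and 1 XY input only and was not tested.

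Eed encodes the PRC2 subunit that reads methylated histone H3. Its probe (A_51_P238643, chromosome 7, 89840003 to 89842912) had a log2 level of -0.19 and -0.20 in the XX inputs, -1.16 and -1.03 in the XX IPs, 0.89 and 0.82 in the XY inputs, and 0.04 and 1.31 in the XY IPs. The XX IPs lay below the XX inputs but were above background on neither array, and the XY IPs lay on both sides of the inputs. Neither difference passed the test (XX -0.90 ± 0.45, adjusted p = 0.119; XY -0.18 ± 0.45, adjusted p = 0.776). The PRC2 genes gave 4 tested probes, too few to set against the shares of all tested probes, which are given with the whole list.

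Ring1 encodes a ubiquitin ligase of PRC1. The tested probe (A_52_P41728, chromosome 17, 33632344 to 33632403) had a log2 level of -2.31 and -2.95 in the XX inputs, -1.22 and -0.53 in the XX IPs, -2.12 and -2.05 in the XY inputs, and -1.16 and -0.20 in the XY IPs. Like Ezh1, it was above background on no IP array, so its differences (1.76 ± 0.46 in XX, adjusted p = 0.00854; 1.41 ± 0.46 in XY, adjusted p = 0.03) carry no fold. They were under the 4-fold limit. The other probe (A_51_P455266, 33631673 to 33631732) was above background on 1 of 8 arrays and was not tested.

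Bmi1 encodes the PCGF subunit of canonical PRC1, known for sustaining stem cell renewal. The 3′-most probe (A_52_P39157, chromosome 2, 18604114 to 18604173) had a log2 level of 1.04 and 1.17 in the XX inputs and 4.21 and 4.65 in the XX IPs. In XY it was 0.90 and 0.97 in the inputs and 2.49 and 2.88 in the IPs. The inputs of the sexes lay close together, and all IP values lay above all input values. The level in the IP was 10.03-fold higher in XX (log2 difference 3.33 ± 0.39, adjusted p = 0.000116) and 3.35-fold higher in XY (1.75 ± 0.39, adjusted p = 0.00474), the latter under the 4-fold limit. When arrays were scaled to their 50th percentile instead, the XY difference was -0.12. The median of all tested probes was then -1.90, and Bmi1 stood 1.78 above it, as under the main scaling, since a change of percentile shifts all probes of an array alike. A second Bmi1 probe (A_51_P121547, 18601433 to 18601492), 2681 bases upstream, was above background on none of the 8 arrays.

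Cbx2 encodes the chromobox subunit. Its 3′-most probe (A_52_P13730, chromosome 11, 118847139 to 118847198) had a log2 level of 1.01 and 1.10 in the XX inputs, 0.83 and 1.99 in the XX IPs, 1.68 and 1.79 in the XY inputs, and 2.34 and 3.26 in the XY IPs. It was above background on 7 of 8 arrays. In XX the IPs lay on both sides of the inputs (0.35 ± 0.48, adjusted p = 0.57). In XY both IPs were above both inputs, but the difference of 1.07 ± 0.48 did not pass the test (adjusted p = 0.095). The other Cbx2 probe (A_51_P300245, 118845104 to 118845163) was above background on 1 of 8 arrays.

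Phc1 encodes the polyhomeotic subunit, which links PRC1 complexes to each other. At the main scaling its level in the IP was close to that in the input. This compares positions on separately scaled arrays and not amounts of mRNA. The probe above background on all 8 arrays (A_52_P243553, chromosome 6, 122283899 to 122283958) had a log2 level of 3.13 and 3.28 in the XX inputs, 2.90 and 3.32 in the XX IPs, 3.61 and 3.89 in the XY inputs, and 3.40 and 4.00 in the XY IPs. IP and input overlapped in both sexes. Its log2 difference was -0.10 for XX (95% confidence interval -0.98 to 0.79) and -0.05 in XY (-0.94 to 0.83). A recovery of 4-fold thus lay outside both intervals at this scaling. Over the alternatives the difference of this probe ranged from -2.11 to 0.11 in XX and from -1.92 to 0.25 in XY. Among probes above background on all 8 arrays it stood above 38.9% in XX and 40.1% in XY. The 3′-most probe (A_51_P433430, 122283644 to 122283703), 255 bases away, gave 0.03 in XX and -0.25 in XY, with 1 of 2 IP arrays above background in each sex. Another probe (A_52_P373369, 122287643 to 122287702) was above background on 2 of 8 arrays and was not tested.

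Rybp and Yaf2 encode the related subunits of variant PRC1, and both were recovered in XX but not called in XY. Yaf2 has 1 probe (A_51_P292754, chromosome 15, 93112056 to 93112106), with a log2 level of 3.54 and 3.72 in the XX inputs and 6.70 and 7.58 in the XX IPs. In the XY samples it was 3.41 and 3.42 in the inputs and 2.79 and 4.05 in the IPs. The inputs of the sexes were close together, the XX IPs stood clear of all other arrays, and the XY IPs lay on both sides of the XY inputs. The level in the XX IP was 11.4-fold higher than in the input (log2 difference 3.51 ± 0.49, adjusted p = 0.000244), above that of 97.1% of tested probes. The XY difference was 0.0071 ± 0.49 (adjusted p = 0.993), with a 95% confidence interval from -1.06 to 1.07, and the XY IP arrays disagreed by more than those of any other group for this probe (SD 0.89).

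Rybp has 2 probes. The 3′-most (A_52_P426692, chromosome 6, 100194496 to 100194555) had a log2 level of 3.24 and 3.38 in the XX inputs, 6.21 and 6.79 in the XX IPs, 2.72 and 2.90 in the XY inputs, and 2.84 and 3.82 in the XY IPs. The XX IPs again stood clear of all other arrays, while 1 XY IP array lay among the XY inputs. The level in the IP was 9.14-fold higher in XX (log2 difference 3.19 ± 0.44, adjusted p = 0.000238), and the XY difference was 0.52 ± 0.44 (adjusted p = 0.366). The probe 3105 bases upstream (A_51_P279505, 100197601 to 100197660) was dimmer, with a log2 level of -0.93 and -1.27 in the XX inputs, 0.29 and 1.83 in the XX IPs, -2.21 and -2.33 in the XY inputs, and -1.18 and -1.29 in the XY IPs. It was called higher in XX (2.16 ± 0.49, adjusted p = 0.00396) with 1 of 2 IP arrays above background. That call was lost in 8 of 20 alternatives, with differences down to 0.15, and without the XX IP array above background the difference was 1.39. In XY the probe was above background on no IP array (1.03, adjusted p = 0.113).

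**Figure D1:**
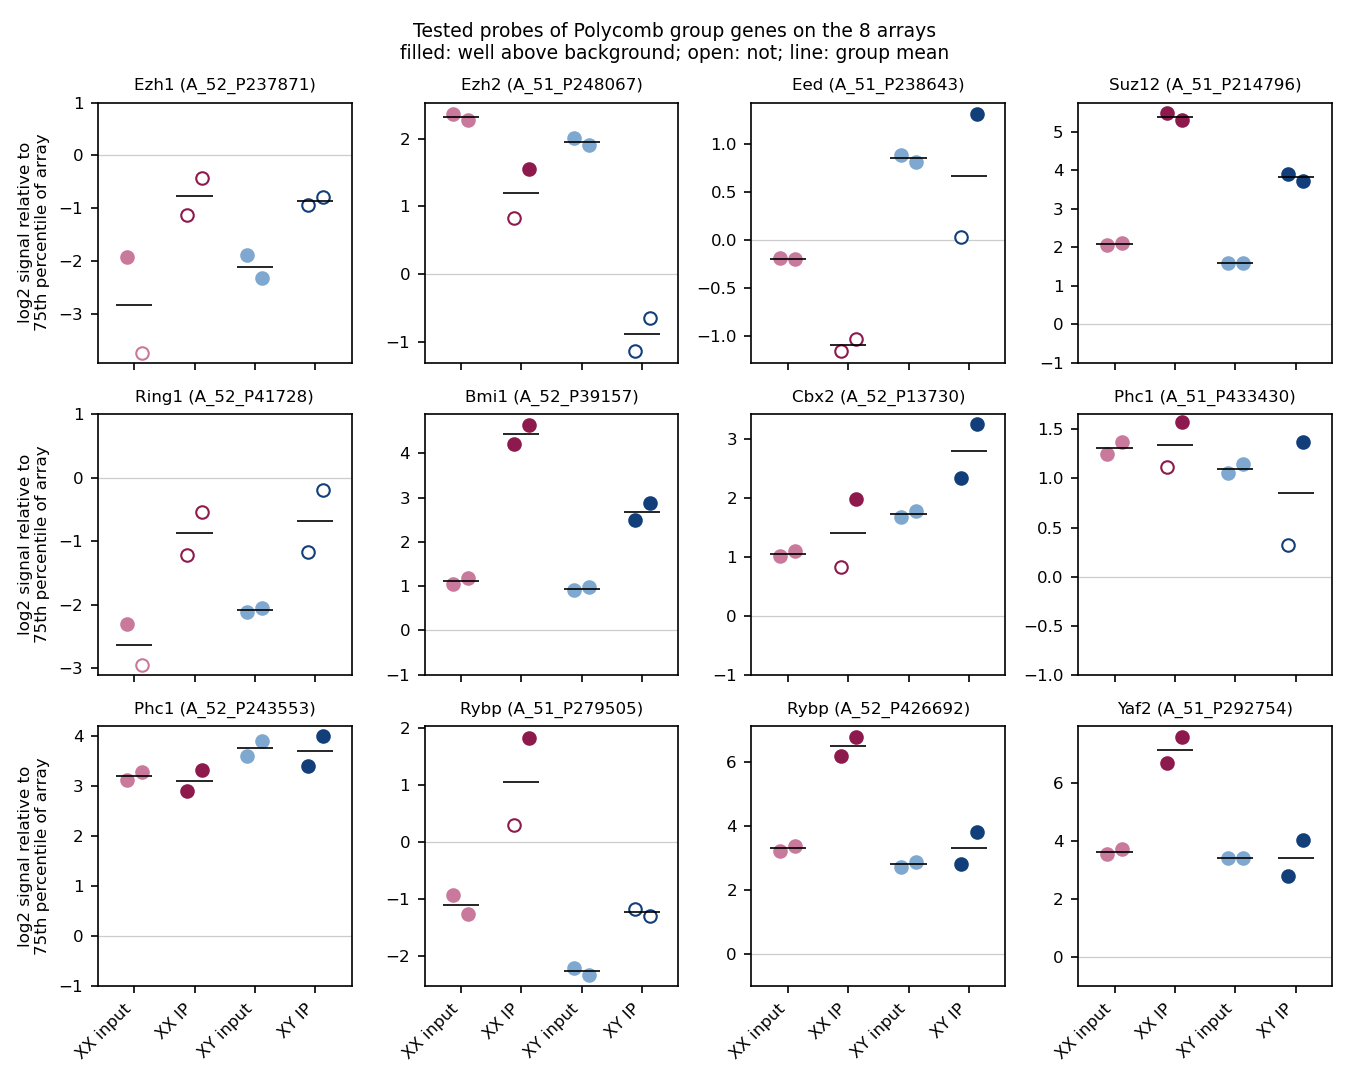
Log2 signal (75th percentile of each array set to 0) for the 12 tested Polycomb probes, by group, with 1 point per array, filled where the probe was well above background, and a line at the group mean. The XX IP points of Suz12, Bmi1, Yaf2 and the Rybp probe A_52_P426692 stand above both XX inputs, those of Phc1 overlap them, and the IP points of Ezh1 and Ring1 are all open.

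Taken over the list, 6 of 12 tested probes, of 5 genes, were called higher in the XX IP and 0 were called lower. The 6 include Ezh1, above background on no IP array, and Rybp A_51_P279505, above background on 1 of 2 XX IP arrays. Their calls were lost in 9 and 8 of 20 alternatives. Over all tested probes 14% were called higher and 9.91% lower. Over probes above background on all 8 arrays, where no difference rests on a dim side, 4 of 5 Polycomb probes were called higher (Suz12, Bmi1, Rybp and Yaf2, with Phc1 not called) and 24.7% of all such probes were. The median log2 difference was 1.91 over the 12 probes and 0.09 over all probes tested. Limma without a filter called 10 of the 17 Polycomb probes higher, where 56.8% of all probes were, which is about the same share. With normexp background correction or scaling to the 50th percentile it called 0, beside 0.378% and 1.03% of all tested probes. At the 50th percentile scaling the median of all tested probes was itself -1.92. Relative to the median, Bmi1, Suz12, Rybp (A_52_P426692) and Yaf2 had differences of 3.24, 3.23, 3.103 and 3.42 at either percentile, values that this change of scaling cannot alter. After normexp correction with outlying local backgrounds replaced, the XX differences of these probes were compressed to 1.20, 1.08, 0.98 and 1.31, and they stood above 95.9%, 93.5%, 90.4% and 97.5% of tested probes. Without a filter on dim probes, where the median difference of all probes was 2.54, the same probes stood above only 63.0%, 62.8%, 60.4% and 68.2% of all probes, 0.78, 0.77, 0.65 and 0.96 above that median.

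In XY, 1 of the 12 probes was called higher (Suz12) and 1 lower (Ezh2, whose XY IP values were not above background and whose bound of 2.80-fold does not show a 4-fold fall), while 10.2% of all tested probes were called higher and 7.68% lower. A share of 1 in 12 is near both backgrounds. Over probes above background on all 8 arrays, 1 of 5 Polycomb probes was called higher and 20% of all such probes were. The median log2 difference was 0.78 over the 12 probes and -0.03 over all probes tested. Under either normexp correction or the 50th percentile scaling no Polycomb probe was called higher in XY. Of all tested probes 0.115% were with normexp, 0.383% with outlying backgrounds replaced and 1.2% at the 50th percentile. The Suz12 difference was 0.23 to 0.36 in those fits. At the 50th percentile scaling Suz12 remained 2.26 above the median of all tested probes, which that scaling cannot alter, whereas after normexp correction it was 0.30 and 0.31 above the median. Without a filter on dim probes the median difference of all probes was 2.38 in XY. The Suz12 value relative to that median was -0.16, above only 48.05% of all probes.

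**Figure D2:**
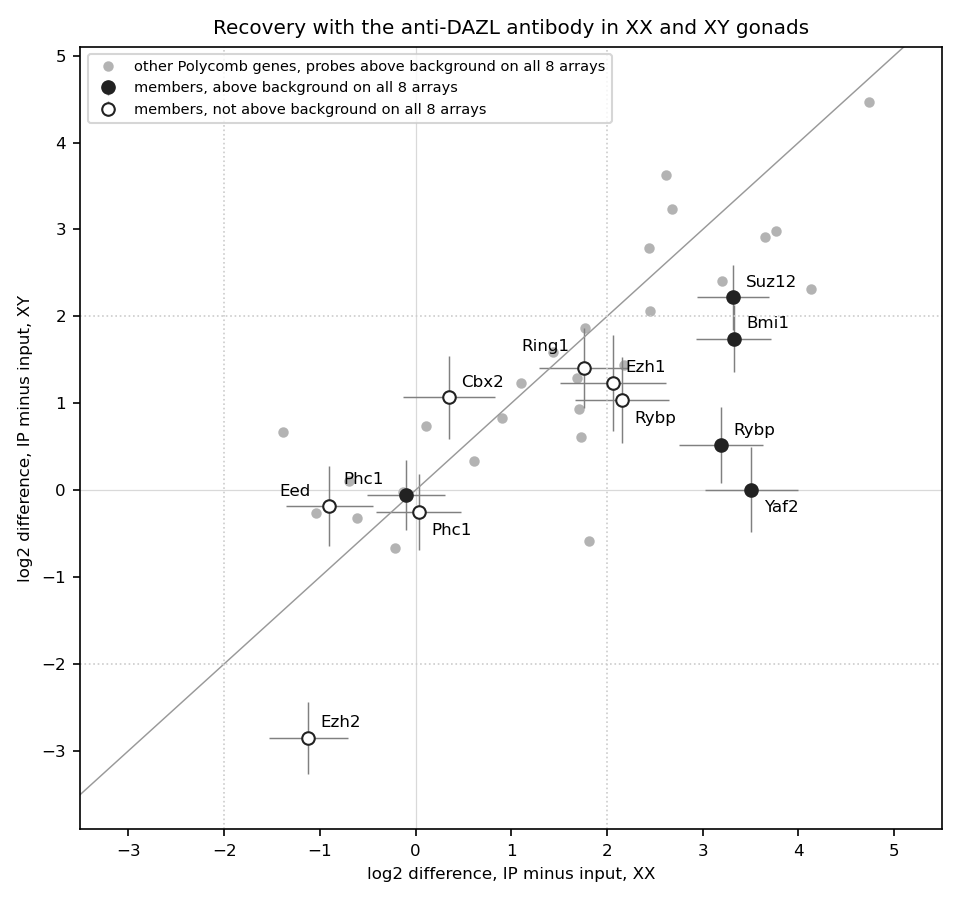
Log2 difference between IP and input in XX (horizontal) and XY (vertical) for the 12 tested Polycomb probes, with standard errors as bars, over 26 probes of other Polycomb genes in grey, all relative to the 75th percentile of each array. The diagonal marks equal recovery and dotted lines a 4-fold difference; Yaf2 (3.51 in XX, 0.0071 in XY) and one Rybp probe (3.19 and 0.52) lie farthest below the diagonal among the members above background on all 8 arrays.

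The comparison of the sexes asked whether recovery differed between XX and XY gonads. It was tested as the difference between the IP contrasts, XX minus XY, at an adjusted p under 0.05. Yaf2 passed, with a log2 difference of 3.50 ± 0.69 (SE, 95% confidence interval 1.99 to 5.01, adjusted p = 0.022). The Rybp probe A_52_P426692 passed too, with 2.67 ± 0.62 (1.31 to 4.03, adjusted p = 0.0394). Both genes were thus more recovered in the XX samples, although sex and slide cannot be told apart. That was 2 of 12 probes higher in XX and 0 lower, beside 2.18% and 1.12% of all tested probes, and 1.05% higher among probes above background on all 8 arrays. The second Rybp probe had the same sign and did not pass (1.12 ± 0.70, adjusted p = 0.481).

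No other member passed that test. The difference was 1.58 ± 0.55 for Bmi1 (adjusted p = 0.16), 1.73 ± 0.58 for Ezh2 (adjusted p = 0.144) and 1.10 ± 0.53 for Suz12 (adjusted p = 0.339). Their unadjusted intervals of 0.37 to 2.79, 0.46 to 3.00 and -0.06 to 2.25 do not show that the sexes were alike. For Ezh2 the XY side was not above background, which makes its difference uncertain. For Phc1 (A_52_P243553) the difference was -0.05 with an interval from -1.30 to 1.21.

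The calls for Yaf2 and Rybp depended on single arrays and on the fit, while their sign did not. Over 20 alternatives the Yaf2 difference ranged from 2.44 to 4.13 and 12 of them kept the call. That of Rybp (A_52_P426692) ranged from 1.76 to 3.17, and 7 kept it. Yaf2 lost its call without the first XX input (3.41), the first XY input (3.51) or the second XY input (3.50), where the value hardly moved and fewer arrays were left. Rybp lost it without any one array other than the second XY IP, at 2.18 to 2.96. Under all of these settings Yaf2 stood at or above 97.45% of tested probes and Rybp at or above 95.29%.

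**Figure D3:**
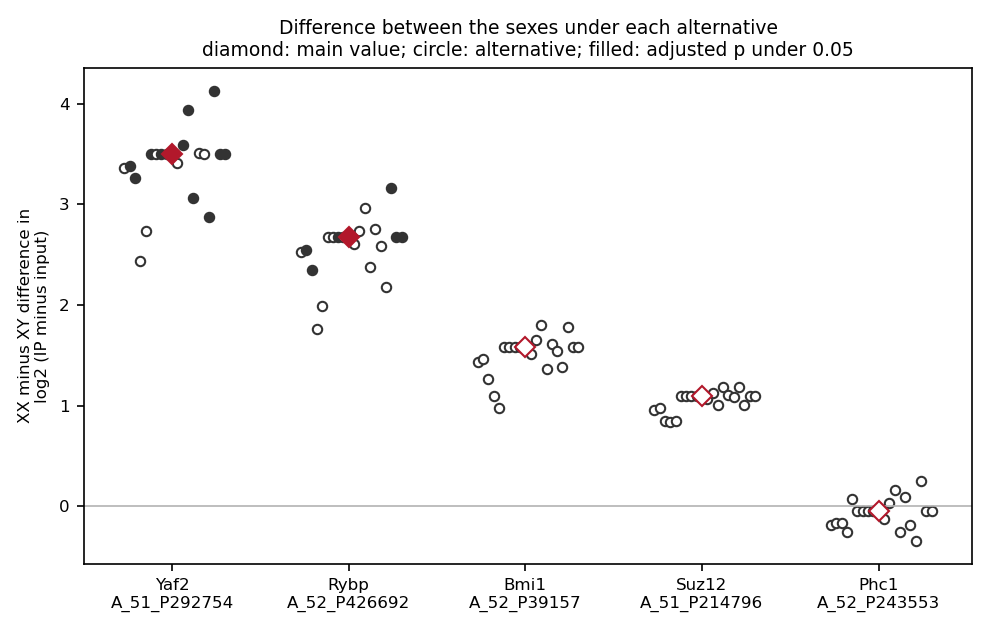
Difference between the sexes in the log2 IP minus input value (XX minus XY, vertical axis) for the 5 Polycomb probes above background on all 8 arrays, under the main processing (diamonds) and 20 alternatives (circles), filled where the adjusted p was under 0.05. Yaf2 stays between 2.44 and 4.13 and Rybp between 1.76 and 3.17, both with filled and open points, whereas Bmi1, Suz12 and Phc1 have open points throughout.

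Markers of other cell types moved in the same contrasts. In the XX IP the 7 ovarian supporting cell markers fell to a summed signal of 18.7 to 23.3, and 4 of 4 tested probes were called lower, 1 of them (Wnt4) above background on neither XX IP array. In the XY IP the 8 Sertoli cell markers summed to 64.7 to 121, and 2 of 8 tested probes were called lower. The 13 germ cell markers on the array summed to 355 to 417 in the XX inputs, 578 to 579 in the XX IPs, 302 to 377 in the XY inputs and 760 to 1165 in the XY IPs. Those sums combine probes that moved in opposite directions. Of 15 tested germ cell probes, 6 were called higher and 2 lower in the XX IP (Tex101 -2.25, Dppa5a -2.04), 5 higher and 0 lower in the XY IP, and 3 higher and 6 lower in the XX inputs than in the XY inputs, among them Dppa3 (-4.19) and Dnd1 (-4.33) lower in XX. These counts include Nanos3, called higher in the XX IP and lower in the XX inputs. It was above background on no XX array and passed the filter only through the XY inputs. The Rnf17 probe A_52_P350756, called higher in the XX inputs, passed only through those. In the difference between the sexes 3 of 8 Sertoli cell probes, 4 of 13 Leydig and interstitial probes and 1 of 15 germ cell probes were called higher, and 1 of 4 ovarian supporting probes lower. All 8 of the probes called higher were above background on no XX IP array, and 4 of them on no XX array, while the probe called lower was above background on no XY array, so none of these calls measures a recovery in both sexes. Their part in the results for Yaf2 and Rybp was not tested.

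The level from which recovery started was compared between the XX and XY inputs. None of the 12 Polycomb probes was called in limma, beside 5.87% of all tested probes higher in XX and 6.1% higher in XY. Before adjustment, limma gave a p under 0.05 for 2 of the 12 probes, a smaller share than the 23.8% of all tested probes with such a p. They were the upstream Rybp probe, whose log2 difference was 1.17 (adjusted p = 0.167), and Eed, at -1.05 (adjusted p = 0.182). For Yaf2 the input difference was 0.21 (95% confidence interval -0.85 to 1.28), and for Rybp (A_52_P426692) it was 0.50 (-0.46 to 1.46). Fitted to the 4 input arrays alone, with the smaller spread of the inputs, limma called 3 probes higher in XX (both Rybp probes, 1.17 and 0.50, and Suz12, 0.49) and 3 lower (Eed -1.05, Cbx2 -0.67 and Phc1 A_52_P243553 -0.54). In that fit 22.6% of all tested probes were called higher and 21.5% lower, so 3 of 12 in each direction is near the background.

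The other genes of the Polycomb pathway were taken from a fixed list of 43, of which 42 were on the array and 35 were tested with 62 probes. In XX 16 probes of 11 genes were called higher and 0 lower, and in XY 10 probes of 8 genes higher and 0 lower. That is 16 and 10 of 62 probes, beside 14% of all tested probes called higher and 9.91% lower in XX, and 10.2% higher and 7.68% lower in XY. Over these probes the median log2 difference came to 1.01 for XX and 0.70 for XY. By group, probes called higher in XX and in XY were 5 and 3 of 14 for other PRC2 genes, 5 and 3 of 18 for other core PRC1 genes, 3 and 3 of 13 for partners of variant PRC1, 3 and 1 of 15 for the deubiquitinase complex PR-DUB and recruiters, and 0 and 0 of 2 for the histone H3 lysine 27 demethylases.

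Pcgf5, a PCGF subunit of variant PRC1, had the highest values among these genes. The probe A_51_P407989 had a log2 level of 2.93 and 2.86 in the XX inputs, 7.24 and 8.02 in the XX IPs, 2.43 and 2.47 in the XY inputs, and 6.73 and 7.11 in the XY IPs. Recovery was high in both sexes, with log2 differences of 4.74 ± 0.41 for XX (adjusted p = 6.12e-05) and of 4.47 ± 0.41 for XY (adjusted p = 3.96e-05), and they differed by 0.27 ± 0.58 between the sexes. Rnf2, the paralogue of Ring1 and the more widely required PRC1 ligase, had a log2 level of 3.15 and 3.28 in the XX inputs, 7.11 and 7.59 in the XX IPs, 2.78 and 2.90 in the XY inputs, and 4.81 and 5.49 in the XY IPs (A_51_P382253). It was called in XX at 4.13 and in XY at 2.31. A second Rnf2 probe (A_52_P149743), above background on 1 of 2 IP arrays in each sex, was called in XX (2.83) and not in XY (0.73, adjusted p = 0.316). For A_51_P382253 the difference between the sexes of 1.82 ± 0.58 did not pass (adjusted p = 0.119), but it passed under quantile normalization (1.81, adjusted p = 0.0263), with scaling to the median of probes above background on all arrays (1.70, adjusted p = 0.0402) and without the second XY IP array (2.17).

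Kdm2b, Jarid2, Bcorl1, Pcgf3 and Sfmbt1 each had at least 1 probe above background on every array that was called in both sexes. Kdm2b, which recruits variant PRC1 to CpG islands, gave 3.76 and 3.65 for its probes in XX and 2.98 and 2.91 in XY. Jarid2, a PRC2 cofactor, gave 2.44 and 2.68 in XX and 2.79 and 3.24 in XY, and Bcorl1, a corepressor related to the variant PRC1 partner BCOR, gave 2.61 and 3.62 for one probe (A_52_P91757), whereas its dimmer probe (A_51_P376057) gave 0.47 and 1.23, neither called. Pcgf3, a PCGF paralogue, gave 3.20 in XX and 2.41 in XY. Sfmbt1, an MBT-domain protein, gave 2.45 and 2.07 for A_52_P160518. Its other tested probes, above background on no XY IP array, were not called in XY (1.11 and 0.91). In XX 1 of them (A_52_P268726) was called higher, 1.95 above the median of all tested probes, and it lost that call in 7 of 20 alternatives. The other (A_51_P191511) was not called in XX. Rbbp4, a histone-binding subunit of PRC2 and other complexes, had probes that differed: A_51_P307325 was called in XX (2.18) and not in XY (1.44), A_52_P382731 was called in both (3.08 and 3.18) with 1 of 2 IP arrays above background in each sex, and the other tested probes were called in neither.

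Scml2, a PRC1-associated protein of the germ line, was the only other Polycomb gene called in the difference between the sexes. As 1 of 62 probes it is no larger a share than the 2.18% of all tested probes called higher. The probe A_52_P134598 had a log2 level of 2.69 and 2.61 in the XX inputs, 4.66 and 4.25 in the XX IPs, 1.91 and 1.93 in the XY inputs, and 1.64 and 1.03 in the XY IPs. It was above the inputs in both XX IPs and below them in both XY IPs, a difference between the sexes of 2.40 ± 0.57 (adjusted p = 0.0407). The other Scml2 probes, also above background on all 8 arrays, did not share this: their differences between the sexes were -0.11 (A_51_P162474) and -0.30 (A_51_P162481). Between the inputs, Sfmbt2, a paralogue of Sfmbt1, was called lower in XX than in XY (log2 difference -2.36, adjusted p = 0.0104). Its XX inputs lay apart, at -1.87 and -0.23, and the call was lost in 7 of 19 alternatives, with -1.54 (adjusted p = 0.195) without the first XX input and -2.20 (adjusted p = 0.0683) without the second XY input. Kdm6a, an X-linked histone H3 lysine 27 demethylase, was called higher in XX (adjusted p = 0.00233). Its probe passed the filter only through the XX inputs, the group in which it was high. It was above background on neither XY input, so its level was at least 5.43-fold higher in the XX inputs at the main processing. After normexp correction the log2 difference was 0.35 and not called (adjusted p = 0.466), and with outlying local backgrounds replaced it was 0.89 and called (adjusted p = 0.00762). The call was also lost without moderated variances (adjusted p = 0.0567). Kdm6a is named after its value was seen.

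**Figure D4:**
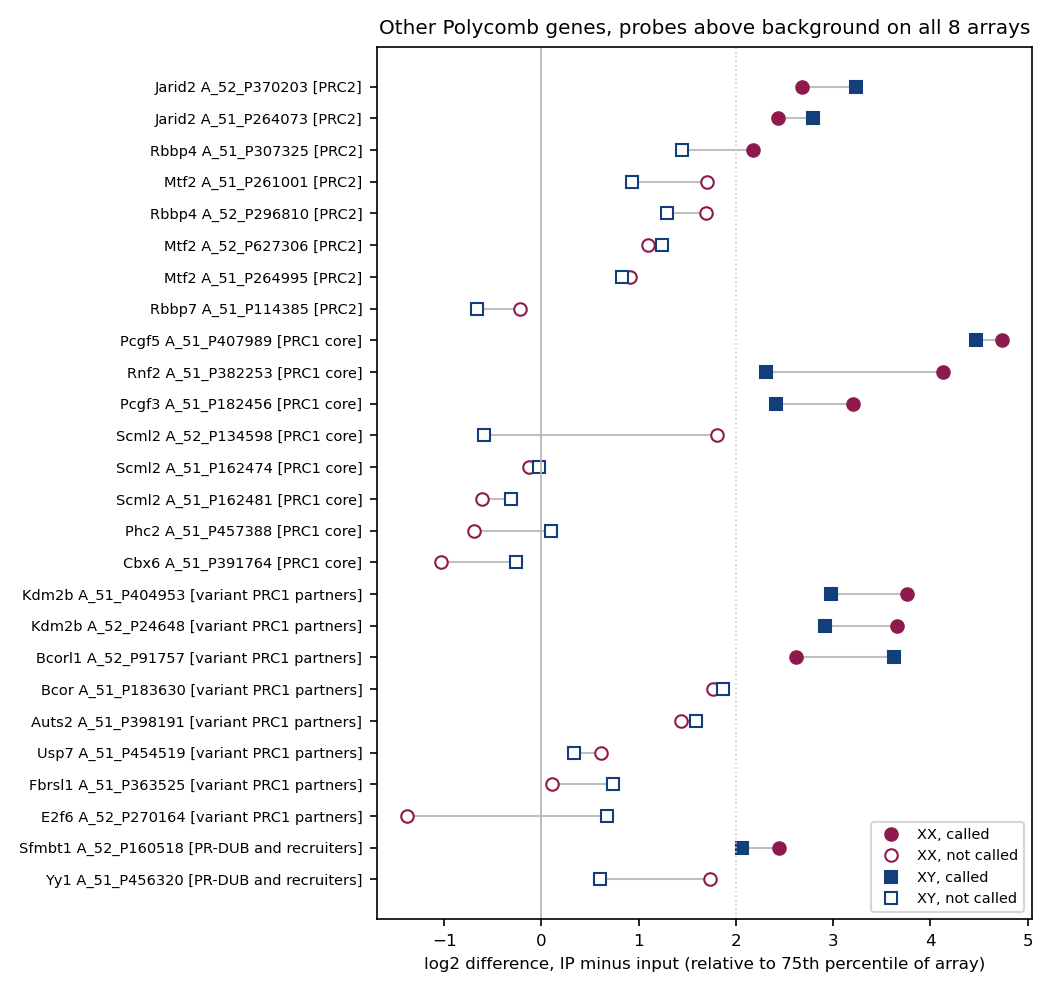
Log2 difference between IP and input, relative to the 75th percentile of each array, for the 26 probes of other Polycomb genes above background on all 8 arrays, with XX as circles and XY as squares, filled where called at an adjusted p under 0.05 and at least 4-fold. Pcgf5 (4.74 and 4.47) has the highest values in both sexes, and for Scml2 A_52_P134598 the XX and XY points lie 2.40 apart.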

How the data were processed

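Per the file headers, the deposited scanner files hold processed signal intensities from Agilent Feature Extraction 9.5.3.1, background-subtracted but not normalized between arrays. The deposited table of log2 values was made by the authors, who set values under 1 to 1 and scaled each array to its 75th percentile, and it was used as an alternative. The same steps were applied here to the scanner values. Spots of a probe were averaged, 73 probes marked as outliers were left out, and no probe was saturated. Probe positions are those in the files, on mm8, of which no annotation was used, so exons and UTRs are not given. Of 41101 probes, 18265 passed the filter (both arrays of 1 or more groups well above background) and were tested with limma 3.58.1 in R 4.3.3 on all 8 arrays, with 1 mean per group, moderated variances (4 residual and 7.82 prior degrees of freedom) and Benjamini-Hochberg adjustment over all tested probes. Tests were two-sided. The 4-fold limit is that of the study, with an adjusted p. The procedure was tested on simulated data. The number of arrays limits the precision.

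Members and lists were chosen with earlier results of these data known. Named were all probes of the members, the other Polycomb genes with a called probe above background on both arrays of both groups compared, Kdm6a (named after its value was seen, as it falls outside that rule), Dazl, and examples from the marker lists. Markers of 6 cell types were listed. Endothelial probes were called lower in XX in 3 of 6 cases (above background on no XX IP array) and in XY in 0, blood probes in 3 of 8 in each sex, and Leydig and interstitial probes in 3 of 13 in each sex. Alternatives changed the scaling, normalization, background correction, floor, filter, fit, value table, replicate block and each single array.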

Additional observations from a re-analysis of the deposited data

Results flagged for a closer look

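The XX minus XY difference in recovery, in which sex and slide cannot be told apart, passed the test for 2 member probes above background on all 8 arrays. It was 3.50 on the log2 scale for Yaf2 (adjusted p = 0.022 in limma) and 2.67 for Rybp probe A_52_P426692 (adjusted p = 0.0394). Of 62 probes of other Polycomb genes 1 passed, Scml2 probe A_52_P134598, at 2.40 (adjusted p = 0.0407), a share no larger than the 2.18% over all tested probes. In each case the XX IPs were both above the XX inputs. The call was lost in 8 of 20 alternatives for Yaf2, in 13 of 20 for Rybp and in 13 of 20 for Scml2, with differences of 2.44 to 4.13, 1.76 to 3.17 and 0.63 to 2.70 over all of them, and 2 further Scml2 probes gave -0.11 and -0.30.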

How the results depend on the processing

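Among the member probes no called difference changed sign under any alternative; among the other named probes that were tested, 1 did, the Dazl probe A_52_P271166 in XY (-0.14 under normexp correction with outlying backgrounds replaced). Counts of member probes moved as follows, with smaller moves left out. Ezh1 and Rybp A_51_P279505 lost their XX calls in 9 and 8 of 20 alternatives, so the count higher in XX also fell in settings not listed for it. With scaling to the 50th percentile 0 were called higher in XX and 3 lower, 0 higher in XY and 3 lower, and 0 in the difference between the sexes. Of all tested probes, that scaling called 1.03% higher and 47.3% lower in XX, and 1.2% and 45.9% in XY. In the difference it called 0.0985% higher and 0.0493% lower. With scaling to the median of probes above background on all arrays, 0 were higher in XY, beside 7.26% of all tested probes. With normexp correction, with or without outlying backgrounds replaced, 0 were higher in XX, 0 higher or lower in XY and 0 in the difference, and 1 was lower in the XX input with backgrounds replaced. Of all tested probes, 0.378% were higher in XX in either fit. In XY 0.115% were higher and 4.39% lower, or 0.383% and 10.6% with backgrounds replaced. With backgrounds replaced 0.783% were higher and 0.701% lower in the difference, and 7.45% lower in the XX input. Without a filter 10 of 17 were higher in XX and 3 in XY, beside 56.8% and 54.4% of all probes. In the difference 0 were called without a filter, beside 0.112% of all probes higher and 0.0681% lower. With only probes above background on all 8 arrays 0 were lower in XY, beside 5.49% of such probes. The difference kept 1 probe with a common floor and 0 without moderated variances, beside 1.13% and 0.0164% of all tested probes called higher. Fitted to the 4 inputs alone, 3 were higher and 3 lower in XX, beside 22.6% and 21.5% of all tested probes. Leaving out 1 array at a time gave 0 to 2 for the difference, 0 to 1 for probes higher and 0 to 1 for probes lower in the XX input.

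Over all probes, those called higher in the difference numbered 398, 18 with scaling to the 50th percentile, 0 with normexp correction, 143 with backgrounds replaced, 46 without a filter, 3 without moderated variances and 97 to 986 without 1 array. Those higher and lower in XX numbered 2566 and 1810, 189 and 8643 with scaling to the 50th percentile, 1479 and 3286 with quantile normalization, and 69 and 2088 with normexp correction. In XY they numbered 1861 and 1403, then 219 and 8379, 1241 and 2478, and 21 and 801.

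Replicate numbers are shared by the groups. Deviations of same-numbered arrays correlated at 0.031 (XX input with XX IP), 0.138 (XY), 0.52 (inputs) and 0.54 (IPs), and no source says that a number marks a shared lot. With the number as a block, the counts of called members were unchanged in every comparison, and the adjusted p was 0.0161 for Yaf2 and 0.0229 for Rybp in the difference between the sexes; with a block within each sex it was 8.06e-05 and 0.0043. Signal over background limited 7 of the 12 tested probes, which were not above background on all arrays, and the 5 probes not tested.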
